A study of Mus musculus with 10 samples.

Results

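Calmodulin and the kinases it switches on, other than the CAMK2 enzymes, were examined in collecting duct cells with and without an intact Camk2d gene. The members were 9 genes taken by symbol from a table of 55414 genes, namely the calmodulin genes Calm2 and Calm3, the kinases Camk1, Camk1d, Camk4, Camkk1, Camkk2 and Mylk, and the CAMK2 inhibitor Camk2n1. Levels are given in TPM as the authors computed them, a unit that corrects read numbers for gene length and for the size of the library. Levels can thus be set beside each other between genes, but the sequencing depth of a sample is unknown. All 10 samples were mpkCCD cells, an immortalized mouse cortical collecting duct line of C57BL/6 background, grown on membrane filters for 7 days with dDAVP, an agonist of the vasopressin V2 receptor. The intact group held 5 samples of 3 lines, namely the untransfected parental line (1 sample, Wild-type mpkCCD), intact clone 1 (2 samples) and intact clone 2 (2 samples). The intact clones had gone through the same Cas9 transfection without a mutation of Camk2d. The 5 Camk2d knockout (KO) samples were 5 single-cell clones made with 1 of 2 guide RNAs against the kinase domain, KO 1 and KO 2 with the first and KO 3, KO 4 and KO 5 with the second. Each KO line is thus 1 clone, and p-values over these samples measure the spread between clones and between repeat samples of a clone. In bulk RNA, fewer cells that express a gene and less RNA per cell cannot be told apart.

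Calmodulin is a small Ca2+ sensor that wraps around its targets when Ca2+ rises. Among the targets are the CAMK2 enzymes, which stay active after autophosphorylation, and a cascade in which CAMKK1 and CAMKK2 phosphorylate CAMK1 and CAMK4 on their activation loop. Calmodulin also turns on myosin light chain kinase (MLCK, gene Mylk), which phosphorylates the regulatory light chain of myosin II, and in collecting duct cells Ca2+ and calmodulin take part in the vasopressin control of aquaporin-2 and the actin cytoskeleton. The question asked of these genes was whether transcripts of the related kinases and of calmodulin itself shift when Camk2d is lost.

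The targeted gene was checked first. Camk2d was 141, 134, 135, 129 and 123 TPM in the intact samples and 25.5, 19.8, 23.2, 29.8 and 25.2 TPM in KO 1 to KO 5, so the groups did not overlap and the KO mean was 18.6% of the intact mean. Between 19344 and 20052 genes per sample were above 0. Of 12 principal cell markers, 9 had at least 1 TPM in every sample, among them Aqp2, Avpr2 and Gata3, while Aqp4, Scnn1b and Elf5 did not. Of 6 intercalated cell markers 0 had at least 1 TPM in every sample, and they summed to 1.88 to 3.49 TPM in intact samples and 1.00 to 7.11 TPM in KO clones, where Aqp6 (0.64 to 7.11 TPM over all samples) was the highest and Atp6v1g3 was listed at 0. Of 3 proximal tubule markers Lrp2 was present at 6.51 to 14.9 TPM and Slc34a1 was listed at 0. Of 3 leukocyte markers Cd68 was present at 3.51 to 9.05 TPM, Ptprc reached 0.62 TPM and Cd3e 0.04 TPM. The 3 fibroblast markers summed to at most 0.49 TPM and the 3 endothelial markers to at most 0.06 TPM. The summed principal cell markers, which Aqp2 dominates, were 6437 to 8033 TPM in intact samples and 3795 to 6358 TPM in KO clones. Aqp2 alone was 3773 to 5502 TPM in intact samples and 1281 to 3789 TPM in KO clones. Its ranges thus overlapped, as did those of each other marker in this sum. The paper reports that the Aqp2 transcript was not significantly decreased. The part of these levels in the values given here was not tested.

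KO was compared with intact over the 20000 genes with the highest mean TPM, on log2(TPM + 1) with limma and Benjamini-Hochberg adjustment over all of them. The added 1 shrinks the log2 ratio of a gene with a low TPM. Of the 9 members, 8 were among the genes tested and 0 had a limma adjusted p under 0.05, beside 0.00500% of all genes tested, which is Camk2d alone. Without adjustment, limma gave a p under 0.05 for 1 of the 8, Mylk, which was higher in KO clones, beside 4.53% of all genes tested. This count was 0 with median-ratio rescaling, quantile normalization, a random effect of the line, 1 value per cell line and intact clone 1 left out, and in 5 of the 10 fits without 1 sample. Over all genes the count of 1398 at an unadjusted p under 0.05 came to 749 under the random effect and 762 when each line gave 1 value. Of the members 0 were lower, beside 2.46% of all genes, and 6.99% of all genes passed in either direction. In 0 of the 8 did the KO clones and the intact samples not overlap, beside 1.64% of all genes tested. The median log2(KO/intact) was 0.06 over the 6 members with a mean of at least 1 TPM and 0.03 over all 13047 such genes. The paper's own test, edgeR on expected counts, called further transcripts beside Camk2d, so fewer genes passed the test used here.

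The levels of the members spanned the range from among the most abundant transcripts of the cell to none. Calm2 led with a mean of 1202 TPM over the 10 samples and ranked 51st of all genes. Camkk2 followed with a mean of 206 TPM, Camk1 with 112, Calm3 with 54.0, Mylk with 44.4 and Camkk1 with 4.20 TPM. Camk1d (0.253 TPM) and Camk2n1 (0.170 TPM) were close to the floor, and Camk4 was listed at 0 in 9 of 10 samples. In this order, the ranges over samples did not overlap between Calm2 and Camkk2, Camkk2 and Camk1, Camk1 and Calm3, Mylk and Camkk1, or Camkk1 and Camk1d. The ranges did overlap between Calm3 (50.3 to 57.4 TPM) and Mylk (35.0 to 57.8 TPM) and between Camk1d (0.16 to 0.37 TPM) and Camk2n1 (0.10 to 0.22 TPM), so these neighbours were not separated beyond their spread.

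**Figure D1:**
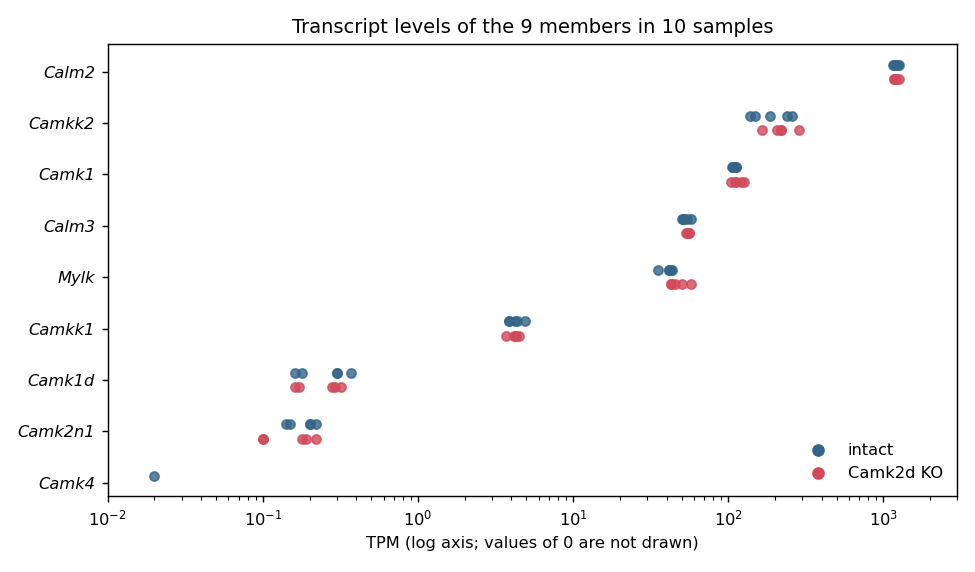
TPM of the 9 members on a log axis, 1 point per sample, intact samples in blue and KO clones in red, with values of 0 not drawn. Members are ordered by their mean, from Calm2 at 1157 to 1268 TPM to Camk4, of which the single value above 0 is 0.02 TPM in the parental line.

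Calm2 and Calm3 encode the same protein. Their coding sequences (principal transcripts of GENCODE M21 on GRCm38, transcript strand) are each 447 bases long without the stop codon and have the same translation of 149 residues. They differ at 78 bases, of which 74 are at the last base of a codon. The first 120 coding bases are shown because they let a reader see how genes with 1 protein can be told apart in sequencing. Capitals mark each base at which the genes differ.
Calm2: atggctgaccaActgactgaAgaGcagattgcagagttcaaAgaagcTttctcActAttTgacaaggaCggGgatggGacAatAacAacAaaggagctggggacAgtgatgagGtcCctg
Calm3: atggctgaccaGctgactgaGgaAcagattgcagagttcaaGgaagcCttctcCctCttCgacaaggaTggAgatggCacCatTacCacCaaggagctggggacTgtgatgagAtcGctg
In this stretch 18 bases differ, and over the whole coding sequence the longest run they share at the same positions is 17 bases, shorter than a 50-base read. Against all annotated transcripts, 90.3% of the 50-base windows of Calm2 and 97.5% of those of Calm3 occur in no other gene. The windows they share lie in processed pseudogenes, which are Gm7308, Gm15720 and Gm14480 for Calm2 and Gm5881 for Calm3.

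Calm2 (ENSMUSG00000036438, chr17:87433412-87446935 on GRCm38, minus strand) was 1197 TPM in the parental line, 1235 and 1260 TPM in intact clone 1 and 1170 and 1157 TPM in intact clone 2. In KO 1 to KO 5 it was 1210, 1268, 1162, 1165 and 1197 TPM. No KO clone lay below the lowest intact sample, and KO 2 alone lay above the highest. The means were 1204 ± 43.3 TPM in intact and 1200 ± 43.0 TPM in KO samples (SD, n = 5 each). The log2(KO/intact) was -0.0041 (standard error 0.05, 95% interval -0.11 to 0.10, limma adjusted p = 0.994 and two-sided exact permutation p = 0.913), and the difference was smaller than the spread between replicates. Its sign turned with quantile normalization, where the ratio was 0.05.

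Calm3 (ENSMUSG00000019370, chr7:16915379-16924114, minus strand) was 54.1, 51.3, 50.3, 52.1 and 57.4 TPM in the intact samples, listed here and below as parental line, intact clone 1 (2 samples) and intact clone 2 (2 samples). It was 56.1, 55.4, 53.7, 54.8 and 54.9 TPM in KO 1 to KO 5, so that every KO clone lay inside the intact range. The log2(KO/intact) was 0.05 (standard error 0.04, 95% interval -0.04 to 0.15, limma adjusted p = 0.820 and two-sided exact permutation p = 0.159). Without the second sample of intact clone 2, which set the top of that range, the log2 ratio was 0.08 (limma adjusted p = 0.833 and exact permutation p = 0.0159), and the other fits without 1 sample gave 0.03 to 0.06. Both members varied little. The SD of log2(TPM + 1) over the 10 samples was 0.05 for Calm2 and 0.06 for Calm3, at the 1.40 and 3.63 percentile of the 13047 genes with a mean of at least 1 TPM, whose median SD was 0.15. Genes with fewer TPM carry more sampling noise, so this order reflects level as well.

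Summed over Calm2 and Calm3, the level was 1251, 1286, 1310, 1222 and 1214 TPM in intact samples and 1266, 1323, 1215, 1219 and 1252 TPM in KO clones. The KO mean was 99.9% of the intact mean, and KO 2 alone lay above the intact range. Calm2 made up 95.3% to 96.2% of this sum in intact samples and 95.5% to 95.8% in KO clones, and Calm3 the rest. The sum is given without a test.

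Of the upstream kinases, Camkk2 was the member that varied most. Camkk2 (ENSMUSG00000029471, chr5:122731170-122779409, minus strand) encodes the CaM kinase kinase that also phosphorylates the energy sensor AMPK. It was 185 TPM in the parental line, 138 and 148 TPM in intact clone 1, and 257 and 238 TPM in intact clone 2. In KO 1 to KO 5 it was 284, 217, 218, 166 and 205 TPM. Intact clone 1 was thus lowest and KO 1 highest, and the other 4 KO clones lay inside the intact range. The means were 193 ± 52.9 TPM in intact and 218 ± 42.4 TPM in KO samples (SD, n = 5 each), and the log2 ratio was 0.20 (standard error 0.19, 95% interval -0.22 to 0.62, limma adjusted p = 0.830 and two-sided exact permutation p = 0.373).

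The spread of Camkk2 ran between cell lines rather than between repeat samples. On the log2(TPM + 1) scale the 2 samples of intact clone 1 differed by 0.11 and those of intact clone 2 by 0.11, while the mean of clone 2 lay 0.79 above that of clone 1, or 1.73-fold in TPM. Among the 13047 genes with a mean of at least 1 TPM, 97.0% had a smaller difference between the intact clones, and the median was 0.11. The difference between the intact clones was larger than that between KO and intact samples (0.20). This was also so, at smaller sizes of 0.04 to 0.19, for Calm2, Calm3, Camk1d, Camkk1 and Camk2n1, but not for Camk1 and Mylk. With both samples of intact clone 1 left out, the log2(KO/intact) of Camkk2 was -0.06 (limma adjusted p = 0.978). With both samples of intact clone 2 left out it was 0.46 (limma adjusted p = 0.869). These fits were chosen after the values were seen. With 1 sample left out the ratio was 0.09 or 0.11 without either sample of intact clone 1, 0.10 without KO 1 and 0.31 without the first sample of intact clone 2, and 0.19 to 0.29 in the other fits. The direction for Camkk2 therefore rested on which intact line it was compared with.

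Camkk1 (ENSMUSG00000020785, chr11:73019008-73042073, plus strand), the other CaM kinase kinase, was 3.86, 4.90, 4.33, 4.20 and 3.86 TPM in intact samples and 4.16, 4.50, 4.24, 4.28 and 3.71 TPM in KO clones. Of the KO clones, 4 lay inside the intact range, and KO 5 lay just below it. The log2(KO/intact) was -0.01 (standard error 0.09, 95% interval -0.22 to 0.19, limma adjusted p = 0.990 and two-sided exact permutation p = 0.833), and it was 0.0045 with 1 value per cell line. In every sample Camkk2 was well above Camkk1. No 50-base window of either gene occurs in another annotated gene.

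**Figure D2:**
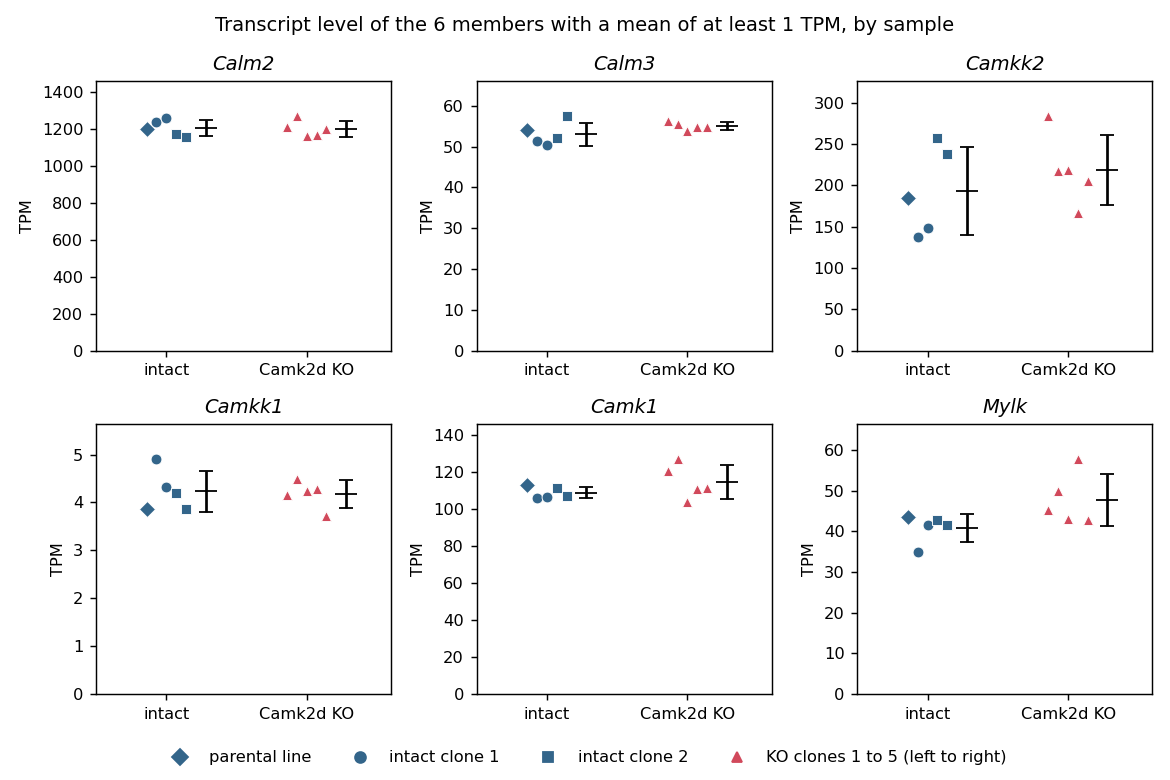
TPM (linear axes from 0) of the 6 members with a mean of at least 1 TPM, 1 point per sample, with the mean and SD of each group in black (n = 5). Calm2 and Calm3 vary little across lines, the circles (intact clone 1) and squares (intact clone 2) of Camkk2 lie apart at 138 to 148 and 238 to 257 TPM, and KO 4 is highest for Mylk at 57.8 TPM.

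Of the member kinases that CAMKK activates, Camk1 was abundant and Camk1d and Camk4 were near or at 0. Camk1 (ENSMUSG00000030272, chr6:113334124-113343984, minus strand), the broadly expressed CAMK1 alpha gene, was 112.80, 106.05, 106.74, 111.57 and 107.10 TPM in intact samples and 120.42, 126.87, 103.72, 110.69 and 111.62 TPM in KO clones. KO 1 and KO 2 lay above every intact sample, KO 3 lay below every one, and KO 4 and KO 5 lay between. The means were 109 ± 3.10 TPM and 115 ± 9.04 TPM (SD, n = 5 each), and the log2 ratio was 0.07 (standard error 0.05, 95% interval -0.05 to 0.19, limma adjusted p = 0.820 and two-sided exact permutation p = 0.230). Without KO 2 the ratio was 0.03, and the other fits without 1 sample gave 0.05 to 0.11. The coefficient of variation was 2.84% among intact samples and 7.88% among KO clones. Camk1 shares 3.88% of its exonic bases with Ogg1 on the opposite strand, and Ogg1 was 21.7 ± 0.797 TPM in intact and 23.5 ± 1.38 TPM in KO samples (SD, n = 5 each). The library kit was not stated to keep strand.

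Camk1d (ENSMUSG00000039145, chr2:5293457-5714515, minus strand), which encodes CAMK1 delta, was 0.30, 0.16, 0.18, 0.30 and 0.37 TPM in intact samples and 0.16, 0.32, 0.17, 0.29 and 0.28 TPM in KO clones. All KO values lay within the intact range. The log2(KO/intact) was -0.02 (95% interval -0.17 to 0.14, limma adjusted p = 0.970 and two-sided exact permutation p = 0.675). Camk4 (ENSMUSG00000038128), a largely nuclear kinase known from neurons and T cells, was 0.02 TPM in the parental line and listed at 0 in the other 9 samples, so it was outside the genes tested and no fold is given. Of the relatives that are no members, Camk1g reached at most 0.05 TPM and Pnck, which encodes CAMK1 beta, was listed at 0 in all 10 samples.

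Summed over the 7 CaM kinase genes outside CAMK2, the level was 302, 249, 260, 373 and 349 TPM in intact samples and 408, 349, 326, 281 and 321 TPM in KO clones. The KO mean was 110% of the intact mean and KO 1 alone lay above the intact range. The log2 ratio of the sum was 0.14, and it was 0.07 without KO 1, 0.07 or 0.09 without either sample of intact clone 1 and 0.22 without the first sample of intact clone 2. With both samples of intact clone 1 left out it was -0.02, and with both of intact clone 2 left out 0.31. Camkk2 made up most of this sum in every sample, and the sum is given without a test. The 4 CAMK2 genes together were 140 to 162 TPM in intact samples and 36.5 to 46.1 TPM in KO clones. Without Camk2d they were 11.8 to 20.3 TPM and 14.4 to 20.6 TPM. In intact samples Camk2d held 24.9% to 33.8% of the TPM of all 11 CaM kinase genes and exceeded Camk1 in every sample. In KO clones its share was 5.13% to 9.12%, and Camkk2 held 50.9% to 62.4% and Camk1 26.5% to 33.9%. These shares must move when Camk2d falls, and the TPM of Camkk2 and Camk1 themselves did not pass the test.

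**Figure D3:**
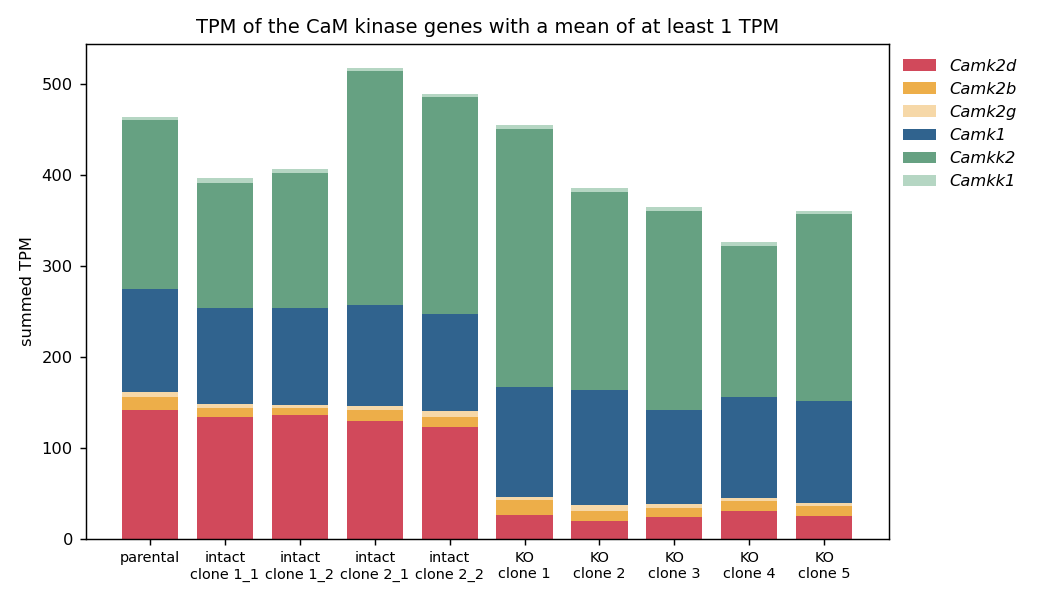
Stacked TPM, per sample, of the 6 CaM kinase genes with a mean of at least 1 TPM. The Camk2d segment shrinks from at least 123 TPM in intact samples to at most 29.8 TPM in KO clones, while the Camk1 segment stays between 104 and 127 TPM and the Camkk2 segment runs from 138 to 284 TPM without separating the groups.

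The inhibitors bind active CAMK2 and block it. Camk2n1 (ENSMUSG00000046447, chr4:138454314-138460123, plus strand) was 0.14, 0.15, 0.20, 0.22 and 0.20 TPM in intact samples and 0.22, 0.19, 0.10, 0.18 and 0.10 TPM in KO clones. KO 3 and KO 5 lay below every intact sample and the other 3 lay within the intact range. The log2(KO/intact) was -0.03 (95% interval -0.15 to 0.09, limma adjusted p = 0.922 and two-sided exact permutation p = 0.405), on a scale where such levels can hardly move. With a pseudocount of 0.1 in place of 1 the ratio was -0.15 (limma adjusted p = 0.922).

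Its paralog Camk2n2, which is no member, was the inhibitor transcript of these cells, with 12.80, 11.96, 11.43, 11.03 and 12.24 TPM in intact samples and 12.69, 14.24, 12.87, 14.50 and 12.45 TPM in KO clones. KO 2, KO 3 and KO 4 lay above every intact sample and KO 1 and KO 5 within the intact range. The log2 ratio was 0.15 (standard error 0.07, 95% interval -0.0010 to 0.31, limma adjusted p = 0.721 and two-sided exact permutation p = 0.0238), with an exact permutation p of 0.125 for 1 value per cell line. In every sample Camk2n2 was above Camk2n1.

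Mylk (ENSMUSG00000022836, chr16:34745210-35002420, plus strand), the MLCK gene, had the largest log2 ratio of the members in the main fit. The ratio of Camkk2 was larger with 1 value per cell line (0.199 against 0.196) and with quantile normalization (0.182 against 0.178). It was also larger in some of the fits without 1 sample. Mylk was 43.7, 35.0, 41.7, 42.9 and 41.6 TPM in intact samples and 45.3, 50.1, 43.0, 57.8 and 42.8 TPM in KO clones. KO 1, KO 2 and KO 4 lay above every intact sample, KO 3 and KO 5 lay just below the parental line, and the lowest intact value was the first sample of intact clone 1. The means were 41.0 ± 3.44 TPM and 47.8 ± 6.31 TPM (SD, n = 5 each), so the KO mean was 117% of the intact mean. The log2(KO/intact) was 0.21 (standard error 0.09, 95% interval 0.01 to 0.41, limma adjusted p = 0.694 and two-sided exact permutation p = 0.0397, without adjustment for the number of genes).

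The Mylk difference stayed positive in every fit without 1 sample (log2 ratio 0.14 to 0.25), but the exact permutation p was above 0.05 in 6 of the 10. It was 0.119 without the first sample of intact clone 1 (log2 ratio 0.16) and 0.0714 without KO 4 (log2 ratio 0.14). It was 0.0794 without the second sample of intact clone 1, 0.0556 and 0.0873 without the first or second sample of intact clone 2, and 0.0635 without KO 2, at log2 ratios of 0.19 to 0.23. With 1 value per cell line the exact permutation p was 0.161, where the smallest p the 56 arrangements allow is 0.0179. Mylk shares 4.87% of its exonic bases with E130310I04Rik and 1.99% with Gm21691 on the opposite strand. These were at most 1.11 and 0.73 TPM in any sample. Of the other MLCK genes, Mylk2 reached at most 0.11 TPM and Mylk4 was listed at 0 throughout. Mylk3 was 0.36 TPM in the parental line, 0 and 0.28 TPM in intact clone 1, 0.02 TPM in KO 3 and listed at 0 in the other 6 samples (limma adjusted p = 0.769).

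**Figure D4:**
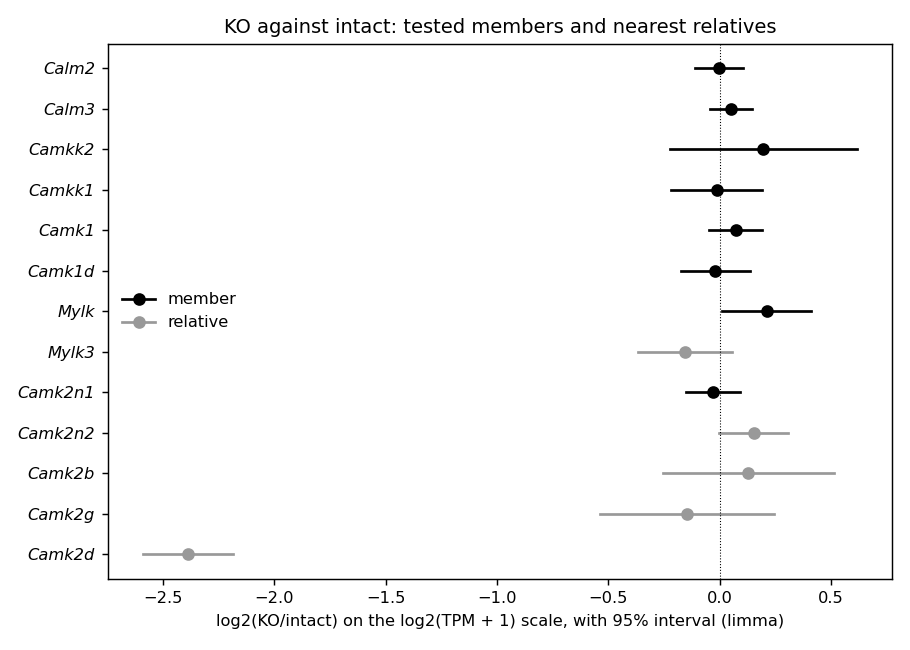
Log2 ratio of KO to intact (difference of mean log2(TPM + 1)) with its 95% interval from limma, members in black and their relatives in grey. Camk2d alone lies far from 0 at -2.39, and the intervals of 7 of the 8 tested members include 0, that of Mylk (0.01 to 0.41) being the exception. The intervals take the 5 intact samples as independent, and with 1 value per cell line that of Mylk included 0 as well.

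The intervals state what size of change the main fit leaves room for, a fit that takes the 5 intact samples of 3 lines as independent. For Calm2, Calm3, Camk1, Camk1d and Camk2n1 they stayed within 0.20 of 0 on the log2(TPM + 1) scale, which for Camk1d and Camk2n1 reflects levels under 1 TPM. For Camkk1 the interval ran from -0.22 to 0.19, for Mylk up to 0.41 and for Camkk2 up to 0.62. With 1 value per cell line the standard error was larger for each tested member, among them Camk1 (0.07), Camk1d (0.08) and Mylk (0.105). The intervals were thus wider in that fit. There 0 members had an unadjusted limma p under 0.05, so the interval of Mylk included 0. A p above the threshold does not show that the groups were alike.

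Beyond the members, 48 other genes of Ca2+/calmodulin signalling were listed by function, and 31 of them were among the genes tested. Of the 17 others, 7 were listed at 0 in all samples and 10 reached at most 0.11 TPM. By limma's adjusted p 1 of the 31 was called, Camk2d. Without adjustment 1 of the 31 was higher in KO clones (Cabin1), beside 4.53% of all genes tested, and 2 were lower (Camk2d and Prkaa2), beside 2.46%. The median log2 ratio was 0.0082 over the 31 and 0.02 over all 20000 genes tested. The 4 calcineurin genes (Ppp3ca, Ppp3cb, Ppp3cc and Ppp3r1), which form the phosphatase that calmodulin activates, had log2 ratios of -0.02 to 0.11 with 0 passing the test. The 2 phosphatases of the CaM kinases, Ppm1e and Ppm1f, had ratios of 0.0082 and 0.0017. The 5 genes of myosin light chains and their phosphatase (Myl9, Myl12a, Myl12b, Ppp1r12a and Ppp1cb), on which MLCK action converges, ran from -0.03 to 0.16, again with 0 passing the test.

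Prkaa2, which encodes an AMPK catalytic subunit that CAMKK2 can phosphorylate, was 2.29, 2.61, 3.10, 2.76 and 2.74 TPM in intact samples and 1.42, 3.83, 0.46, 0.86 and 1.04 TPM in KO clones. In KO 1, KO 3, KO 4 and KO 5 it lay below every intact sample, and in KO 2 above every one. The log2 ratio was -0.68 (standard error 0.27, limma adjusted p = 0.667 and two-sided exact permutation p = 0.0476), with an exact permutation p of 0.125 for 1 value per cell line. Without KO 2 it was -0.95 (limma adjusted p = 0.174 and exact permutation p = 0.00794), and in each of the other 9 fits without 1 sample the exact permutation p was 0.0714 to 0.111. The other catalytic subunit gene, Prkaa1, had a log2 ratio of -0.0049 at 44.7 TPM in intact and 44.6 TPM in KO samples.

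Cabin1, which encodes a calcineurin-binding protein, was 28.7, 25.8, 24.3, 27.3 and 25.4 TPM in intact samples and 31.4, 31.3, 30.5, 32.1 and 27.9 TPM in KO clones. KO 5 lay below the parental line and the other 4 KO clones lay above all intact samples. The log2 ratio was 0.21 (standard error 0.06, limma adjusted p = 0.524 and two-sided exact permutation p = 0.0159, and 0.0357 with 1 value per cell line). Dapk1, a calmodulin-regulated death-associated kinase, was 2.27 and 3.55 TPM in KO 1 and KO 2, 0.35 to 0.60 TPM in the other KO clones and 0.47 to 1.13 TPM in intact samples. Its log2 ratio of 0.21 (limma adjusted p = 0.905) turned to -0.06 without KO 2. Camk2b and Camk2g, the remaining CAMK2 genes with at least 1 TPM, had log2 ratios of 0.13 and -0.15. For Camk2b the ratio was 0.0057 without KO 1, 0.03 without the second sample of intact clone 1 and 0.23 without the parental line. For Camk2g it was -0.04 without the second sample of intact clone 2, -0.09 without the parental line or KO 4 and -0.27 without KO 2. Camk2a was at or under 0.06 TPM in every sample. Calml4, a calmodulin-like gene named after its values were seen, was split like Camkk2 between the intact clones, with 53.0 and 57.1 TPM in clone 1 and 105 and 116 TPM in clone 2, and ran from 24.8 to 105 TPM among KO clones (limma adjusted p = 0.819).

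The genes whose levels followed those of Camkk2 most closely across the 10 samples were Zdhhc4, Anxa6 and Trim3, out of 10453 genes with a mean of at least 5 TPM. Pearson's r of log2(TPM + 1) was 0.962, 0.954 and 0.952 and Spearman's rho 0.964, 0.952 and 0.903. Without the 2 samples of intact clone 1, which lie farthest from the median of Camkk2, r was 0.917, 0.888 and 0.914. Repeat samples of a clone share their line, and the highest of so many correlations is high by selection, so these values describe likeness only. Zdhhc4 ran from 112 to 140 TPM, Anxa6 from 198 to 225 TPM and Trim3 from 84.1 to 131 TPM, each over a narrower range than Camkk2.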

How the data were processed

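Libraries of amplified full-length cDNA from 10 samples were read as 50-bp pairs. The authors used STAR for alignment, an Ensembl annotation and RSEM for quantification, and deposited TPM for each gene in 1 column per sample (0 sample columns unused here). Their edgeR fit took expected counts, which were not used here, so log2(TPM + 1), with a pseudocount of 1, was compared with limma 3.58.1 in R 4.3.3 (intensity trend) over the 20000 genes with the highest mean TPM (lowest mean 0.049). P-values were adjusted by Benjamini-Hochberg, with a threshold of 0.05. For a single gene, KO and intact samples were permuted exactly (two-sided, 252 arrangements, smallest p 0.00794). TPM keep no depth, so no counting error is given. The procedure was first tested on simulated data.

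The members and lists were chosen with earlier results of these data known. A gene of the list is not reported here. Named were all members, their nearest relatives, and list genes with an unadjusted p under 0.05 or among the 2 largest log2 ratios in each direction at a mean of at least 1 TPM. Genes like the most variable member were ranked by Pearson's r. The alternatives were a pseudocount of 0.1 or 0.5, no filter (26023 genes) or a mean of at least 1 TPM, median-ratio or quantile scaling, robust moderation or no trend in limma, the line as a random effect (statmod 1.5.0, consensus correlation 0.603), a single mean for each line, and each sample left out. Leaving out a whole intact clone was added after seeing the data. GENCODE M21 on GRCm38 gave positions, exonic overlaps and 50-base windows (both strands); the authors used a later annotation. Other calculations used Python 3.11.15, pandas 2.3.3, numpy 2.4.6, scipy 1.17.1 and matplotlib 3.10.9.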

Additional observations from a re-analysis of the deposited data

Results flagged for a closer look

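A sample stood apart from the other 4 of its group in 6 of 39 groups checked. Chance marks about 5% of groups when the values are independent and normally distributed. Groups with a single value above 0 and groups with repeat samples of a clone do not meet this. The count of 6 can therefore not be set against that share. The measure is the gap of the extreme sample to its nearest neighbour on log2(TPM + 1), as a share of the range of the group. Among the members, Mylk in the first sample of intact clone 1 (35.0 TPM) was low with a gap of 0.776 of the range, and Camk4 had a gap of 1.00 because the parental line alone was above 0 (0.02 TPM). Among the relatives, Camk2b was high in KO 1 (16.6 TPM, gap 0.732) and Camk2g in KO 2 (6.55 TPM, gap 0.720). Camk1g in KO 5 (0.05 TPM) and Mylk3 in KO 3 (0.02 TPM) each had a gap of 1.00, since the other 4 KO clones were listed at 0.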

How the results depend on the processing

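In each of the 12 alternative settings and the 10 fits without 1 sample, 0 members had a limma adjusted p under 0.05. Over these, the adjusted p of Mylk ran from 0.571 to 1.00 and from 0.604 to 0.875, and its log2 ratio from 0.14 to 0.25. The count of genes called was 2 with a pseudocount of 0.1 (Camk2d and Gm8444) and 1 to 2 without 1 sample. The second gene was ENSMUSG00002076637 without the parental line and Rpl28-ps3 without KO 2. The sign of Calm2 turned with quantile normalization (0.0539) and without both samples of intact clone 1 (0.0306), and without 1 sample it ran from -0.0239 to 0.0126. Camkk1 was 0.0045 with 1 value per cell line and 0.0571 without intact clone 1, and ran from -0.0381 to 0.0319 without 1 sample. Camk1d was 0.0358 without intact clone 2 and ran from -0.0496 to 0.0105 without 1 sample. Without intact clone 1 Camkk2 was -0.0632 and Camk2b -0.0595. Without 1 sample Dapk1 ran from -0.0583 to 0.38. The log2 ratio of summed Calm2 and Calm3 TPM was 0.0523 with quantile normalization. The cause was not tested for any of these. The median-ratio rescaling moved the median of all genes from 0.02 to 0.00054. No paired analysis was possible because the numbers of the intact and KO clones name unrelated clones. TPM keep no depth, which limits what can be said of members with levels under 1 TPM, namely Camk1d, Camk2n1 and Camk4.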
